A study of Mus musculus with 16 samples.

Results

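Ythdc2, Meioc and Rbm46 encode the 3 proteins of an RNA-binding complex of male germ cells, and their transcripts were followed in whole testis after deletion of Ythdc2. The 3 genes were found by matching Ensembl IDs without their version suffix to gene symbols: Ythdc2 is ENSMUSG00000034653, Meioc is ENSMUSG00000051455 and Rbm46 is ENSMUSG00000033882. They are 3 of the 55414 genes in each table. RNA from mouse testes was sequenced at postnatal day 14 (P14) and 16 (P16), in 16 libraries. At P14 there were 3 libraries of the Ythdc2 conditional knockout (cKO), 2 controls and 2 Cre controls, and at P16 there were 3, 2 and 4. Mice of every group, controls included, had been given tamoxifen (10 mg per ml) on P12 and P13, the signal that turns on an inducible Cre recombinase. The labels do not say which Cre driver was used, which part of Ythdc2 was removed, or how the control and Cre control genotypes differ beyond their names.

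YTHDC2 is an RNA helicase of the DExH family that carries a YTH domain, the fold that binds N6-methyladenosine in RNA. MEIOC binds YTHDC2 and has no known catalytic activity, and RBM46 is an RNA-binding protein with RRM domains that brings the complex to particular transcripts. Loss of any of these proteins from the germ line is known to make male mice sterile, with germ cells that try to enter meiosis and return to a mitosis-like state.

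Meioc and Rbm46 moved together in these libraries, so the DNA before their transcription starts is shown. The sequences are from RefSeq (build GRCm38.p6). That of Meioc lies on the plus strand at chr11:102665335-102665584, and that of Rbm46 on the minus strand at chr3:82876484-82876733. Both are written 5' to 3', the last base being the one before the start, and capitals mark matches to 4 motifs searched on both strands: CCAAT (bound by NF-Y), CACGTG (an E-box), TAACNG (A-MYB) and CNCCTCAG (STRA8).

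Meioc: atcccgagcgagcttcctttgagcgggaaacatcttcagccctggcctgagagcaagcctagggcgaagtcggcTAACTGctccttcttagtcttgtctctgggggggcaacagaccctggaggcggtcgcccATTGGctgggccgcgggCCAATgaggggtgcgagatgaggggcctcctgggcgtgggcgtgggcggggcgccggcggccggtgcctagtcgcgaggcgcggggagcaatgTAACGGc

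Rbm46: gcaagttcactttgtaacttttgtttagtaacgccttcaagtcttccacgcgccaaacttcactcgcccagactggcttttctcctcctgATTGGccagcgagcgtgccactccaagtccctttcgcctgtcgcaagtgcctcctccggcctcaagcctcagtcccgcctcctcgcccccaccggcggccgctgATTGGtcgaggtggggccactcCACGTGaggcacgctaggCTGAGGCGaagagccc

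The Meioc promoter held CCAAT on the plus strand 100 bases before the start and on the minus strand at 117, and TAACNG on the plus strand at 176 and at 7. The Rbm46 promoter held CCAAT on the minus strand at 160 and 56, CACGTG at 34, and CNCCTCAG on the minus strand at 16. CCAAT was present in 33.8% of 32851 promoters of the same length, TAACNG in 19.8%, CNCCTCAG in 6.42% and CACGTG in 6.02%. CCAAT was thus the only one of the 4 motifs found in both, and it is also the commonest of them. GC content was 67.6% for Meioc and 61.2% for Rbm46, against a median of 52.4% over all promoters. These matches describe the letters in the window and were not tested as binding sites.

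Libraries were made with either of 2 rRNA depletion kits. The first kit (Ribo-Zero) served the controls and cKO libraries 1 and 2 of each stage, and the second (NEBNext) the Cre controls and cKO library 3 of each stage. First-kit libraries held 22220565 to 27531529 reads on genes, second-kit libraries 14494867 to 23200252. Levels for the same genotype differed between the kits. Per the column names, no sequencing run held libraries of both kits, so kit and run cannot be told apart. In cKO, Meioc was 1.09 (P14) and 1.06 (P16) higher on the log2 scale with the first kit than with the second, Ythdc2 0.81 and 0.92 higher, and Rbm46 0.72 and 0.73 higher. Levels are therefore compared within a kit. The tables with Cre controls mix the kits, since 2 of their 3 cKO libraries differ in kit from every Cre control. Nothing in the labels says that replicates are separate animals, so p-values measure the spread between these samples, which may be technical. In whole tissue, fewer cells of a type and less RNA per cell cannot be told apart.

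Levels are given as RPKM, reads per kb of exon scaled to library size over all 16 libraries, so that genes of different length can be compared. Ythdc2, the deleted gene, stood at 9.63 and 10.8 RPKM in control at P14 and at 3.19 and 3.70 in cKO. At P16 the controls had 12.04 and 11.87 RPKM and cKO had 2.28 and 2.48. Controls lay above cKO with no overlap at either stage, and the gap was wider at P16. With the second kit, Cre controls had 7.89 and 8.69 RPKM at P14 and 9.57, 7.54, 14.5 and 8.75 at P16, and cKO library 3 had 1.95 at P14 and 1.25 at P16. Cre control library 3 at P16 was above the other Cre controls, and both cKO libraries were below all of them. The reads summed here span the whole gene, exons outside the removed piece included, and between 171 and 853 reads remained per cKO library.

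Ordered by mean level with the first kit, Ythdc2 ran from control at P16 (11.95 ± 0.123 RPKM, SD, n = 2) through control at P14 (10.2 ± 0.813, n = 2) and cKO at P14 (3.45 ± 0.355, n = 2) to cKO at P16 (2.38 ± 0.144, n = 2). No neighbours in that order overlapped. With the second kit the Cre controls at P16 (10.1 ± 3.05, SD, n = 4) and P14 (8.29 ± 0.559, SD, n = 2) overlapped, and both were above the cKO libraries. In the table of P14 controls, Ythdc2 changed by -1.60 on the log2(value + 1) scale (SE 0.090, limma adjusted p 0.0148). It was the 1 gene called there, at an adjusted p under 0.05, out of 17270 tested (0.00579%). That call was lost without either control library, at limma adjusted p of 0.0674 without control library 1 and 0.261 without library 2, and also with no filter (0.600) or without the trend (0.665). At P16 the change was -2.34 (SE 0.060, limma adjusted p 2.39e-10), where 38.6% of 17986 genes were called.

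**Figure D1:**
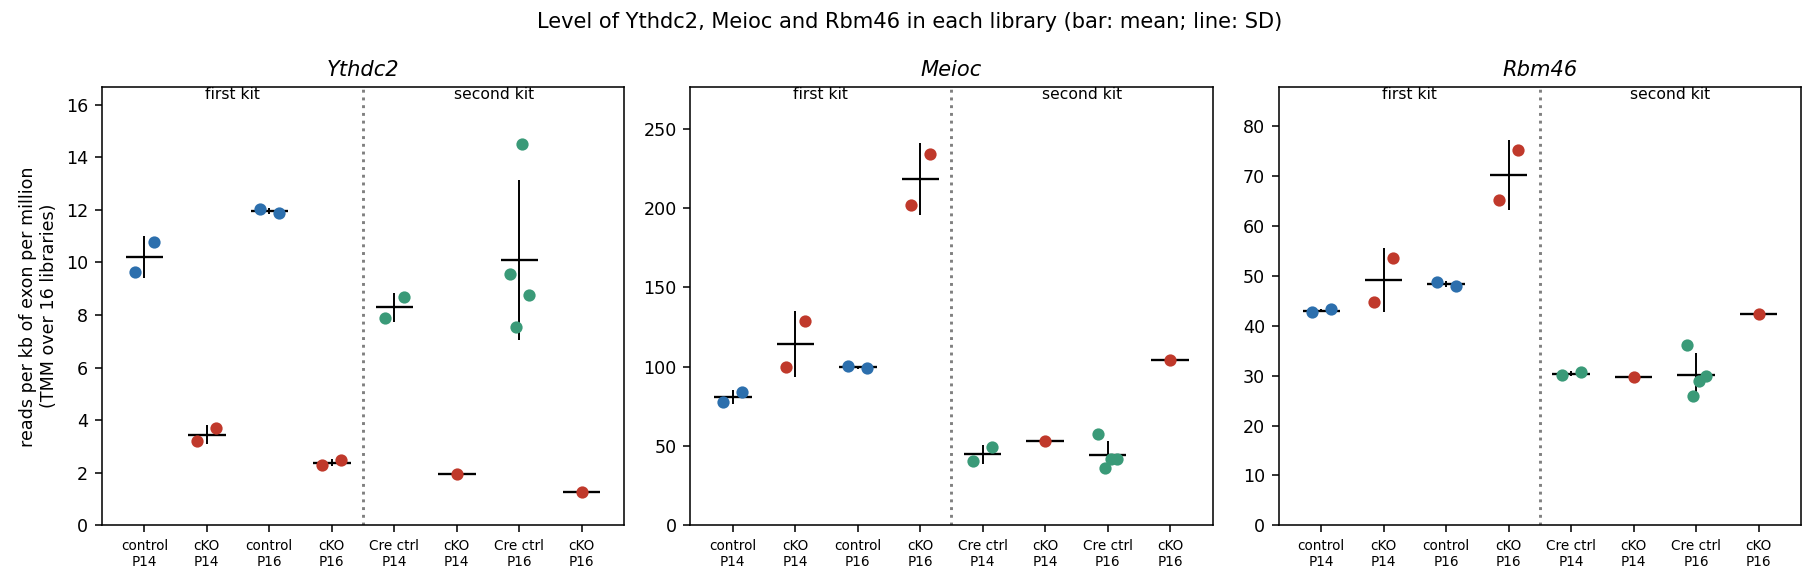
Level of each gene in every library, in RPKM on linear axes from 0, by group within each kit (points, libraries; horizontal bar, mean; vertical line, SD where n is 2 or more). Ythdc2 is lowest in cKO in both kits, Meioc is highest in cKO at P16 within each kit, and Rbm46 follows Meioc with a smaller range.

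Meioc, the partner that forms the core of the complex with YTHDC2, was higher in cKO, chiefly at P16. Per library it stood at 77.5 and 83.9 RPKM in control at P14 and at 99.7 and 129 in cKO. At P16 the controls had 100.4 and 99.0 RPKM and the cKO libraries 202 and 234. The groups did not overlap at either stage, and the gap was far wider at P16. The deposited values in cKO were 1.38 times those of control at P14 and 2.17 times at P16. The change at P14 was 0.45 on the log2 scale (SE 0.11, unadjusted p 0.00548) and did not pass the adjustment over all genes (limma adjusted p 0.99968). It did without cKO library 1, at 0.63 (limma adjusted p 0.0480), and in DESeq2 (0.46, DESeq2 adjusted p 0.0181). The change at P16 was 1.11 (SE 0.054, limma adjusted p 2.72e-08). Ordered by mean RPKM with the first kit, Meioc ran from cKO at P16 (218 ± 22.6, SD, n = 2) through cKO at P14 (114 ± 20.7, n = 2) and control at P16 (99.7 ± 0.952, n = 2), which overlapped, to control at P14 (80.7 ± 4.51, n = 2). Among 5929 genes with a mean deposited value of at least 1000 at P16, 3 had a larger rise than Meioc, and among all 17986 tested 213 had.

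In the second kit Meioc stood at 40.6 and 49.1 RPKM in Cre control at P14 and 53.2 in cKO library 3. At P16 the Cre controls had 57.2, 35.9, 41.5 and 41.7 RPKM, and cKO library 3 had 104. The cKO library was above every Cre control of its stage, by little at P14 and by far more at P16. It was 0.25 above the mean of the P14 Cre controls on the log2 CPM scale, and 1.26 above that of the P16 Cre controls. With the first kit the same differences were 0.49 and 1.13. Cre control library 1 is the 1 P16 Cre control from the same sequencing run as cKO library 3, and against it the P16 difference was 0.86.

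The tables with Cre controls gave larger folds, 2.06 at P14 and 4.05 at P16, over cKO libraries of both kits. At P14 the change in Meioc was 0.95 (SE 0.38, limma adjusted p 0.479), and none of 18196 genes was called by limma (0%), with 705 at an unadjusted p under 0.05. edgeR called 0 genes there as well (580 unadjusted) and DESeq2 called 5 (1099 unadjusted). Without cKO library 3, all 3 members were called at P14 (-1.29 for Ythdc2, 1.32 for Meioc and 0.66 for Rbm46), among libraries where kit and genotype cannot be told apart. That fit called 2435 genes higher and 3821 lower out of 17924. At P16 the change in Meioc was 1.96 (SE 0.28, limma adjusted p 0.0367), where 9.07% of 19200 genes were called. Ythdc2 changed by -1.57 at P14 (SE 0.29, limma adjusted p 0.479) and by -2.36 at P16 (SE 0.29, limma adjusted p 0.0367). Once kit entered the model the P16 change in Meioc was 1.25 (limma adjusted p 0.0939), so it was no longer called. Of all 19200 genes, that model called 0 higher and 1 lower. The P16 calls of Ythdc2 and Meioc were also lost without any 1 of the Cre controls or of cKO libraries 1 and 2, with changes of -2.54 to -2.17 and 1.73 to 2.08 and limma adjusted p of 0.0720 to 0.191, and without the trend in limma (adjusted p 0.0554 and 0.0614). Each of those left-out fits called 0 of all genes tested, and the fit without the trend called 18 higher and 14 lower. These tables share cKO libraries 1 and 2 with the tables of controls.

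Rbm46, which encodes the RRM protein of the complex, rose less than Meioc. At P14 it had 42.8 and 43.3 RPKM in control and 44.7 and 53.7 in cKO. At P16 the controls had 48.8 and 47.9 RPKM and cKO had 65.3 and 75.2. The groups were apart at both stages, at P14 by a margin smaller than the gap between the cKO libraries. The deposited values in cKO were 1.11 times those of control at P14 and 1.44 times at P16. The log2 change was 0.15 at P14 (SE 0.084, limma adjusted p 0.99968, not called) and 0.52 at P16 (SE 0.057, limma adjusted p 2.33e-05). Without the trend in limma the P16 change was not called (adjusted p 0.0522). The order of mean RPKM was the same as for Meioc: cKO at P16 (70.2 ± 7.03, SD, n = 2), cKO at P14 (49.2 ± 6.36, n = 2) and control at P16 (48.4 ± 0.624, n = 2), which overlapped, and control at P14 (43.0 ± 0.340, n = 2). Of the 5929 genes of high level at P16, 76 had a larger rise than Rbm46, and of all 17986 tested 1327 had.

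Rbm46 had, in the second kit, 30.0 and 30.8 RPKM in Cre control at P14, and 29.6 in cKO library 3. At P16 it had 36.1, 25.9, 28.9 and 29.9 RPKM in Cre control and 42.3 in cKO. The cKO library was therefore just below the Cre controls at P14 and above all of them at P16. Within this kit the differences were -0.04 and 0.50 on the log2 CPM scale, against 0.19 and 0.53 with the first kit. Against Cre control library 1 alone the P16 difference was 0.23. Over both kits the table with P16 Cre controls gave 2.00 times the Cre control value, a change of 0.97 (SE 0.20, limma adjusted p 0.0404). Once kit entered the model it was 0.49 (limma adjusted p 0.162). Leaving out Cre control libraries 1, 2, 3 or 4, or cKO libraries 1 or 2, also ended the call, with changes of 0.80 to 1.05 and limma adjusted p of 0.0779 to 0.191. Those left-out fits called 0 of all genes tested, and the model with kit called 0 higher and 1 lower. At P14 the change was 0.42 (SE 0.27, limma adjusted p 0.490), and it turned to -0.074 once kit entered the model.

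Over all 16 libraries, with kit and stage in the model, cKO was compared with both kinds of control at once. Ythdc2 changed by -2.23 (SE 0.15, limma adjusted p 8.00e-07) and Meioc by 0.78 (SE 0.13, limma adjusted p 0.0357), where 1.98% of 19821 genes were called, 0.51% higher and 1.47% lower. Rbm46 changed by 0.29 (SE 0.083, limma adjusted p 0.0680) and was not called. Restricted to the 9 P16 libraries, chosen after the data were seen, the changes were -2.61, 1.18 and 0.52, with limma adjusted p of 2.26e-04, 7.79e-04 and 0.00584. Of 19328 genes, 1230 were called higher in that fit and 1508 lower. Restricted to the 7 P14 libraries the changes were -1.81, 0.35 and 0.05, with limma adjusted p of 0.00171, 0.991 and 0.991, and 0 of 18644 genes were called higher and 1 lower. Meioc was no longer called over all libraries without the run that held Cre control libraries 2 to 4 at P16 (0.68, limma adjusted p 0.0993). Of all genes, 3 were called higher there and 1 lower. The call also ended without any 1 of the control or cKO libraries at P16, or without Cre control library 3 or 4 at P16. The change was then 0.64 to 0.77, with limma adjusted p of 0.0554 to 0.179. Each of those fits called 0 or 1 of all genes higher and 1 lower. For Rbm46, leaving out cKO library 3 at P14 gave 0.38 (limma adjusted p 0.0398), and leaving out Cre control library 2 at P14 gave 0.31 (limma adjusted p 0.0459), both past the threshold.

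An exact two-sided permutation test of genotype was made for each gene by moving labels within kit and stage, over 540 arrangements. The mean difference over the 4 combinations of kit and stage was -2.23 for Ythdc2 and 0.78 for Meioc, each with an exact p of 0.00185, the smallest these arrangements can give. All 4 combinations were lower for Ythdc2 and higher for Meioc. For Rbm46 the mean was 0.30 (exact permutation p 0.00926), with 3 combinations higher and 1 lower. Without cKO library 3 at P16 it was 0.23 (exact permutation p 0.0833). Without the run of Cre control libraries 2 to 4 at P16, over 216 arrangements, the mean for Rbm46 was 0.23 (exact permutation p 0.0417). That setting gave 0.68 for Meioc (exact permutation p 0.00926), no longer the smallest p that can be reached. For Ythdc2 it gave -2.23 (exact permutation p 0.00463, the smallest).

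**Figure D2:**
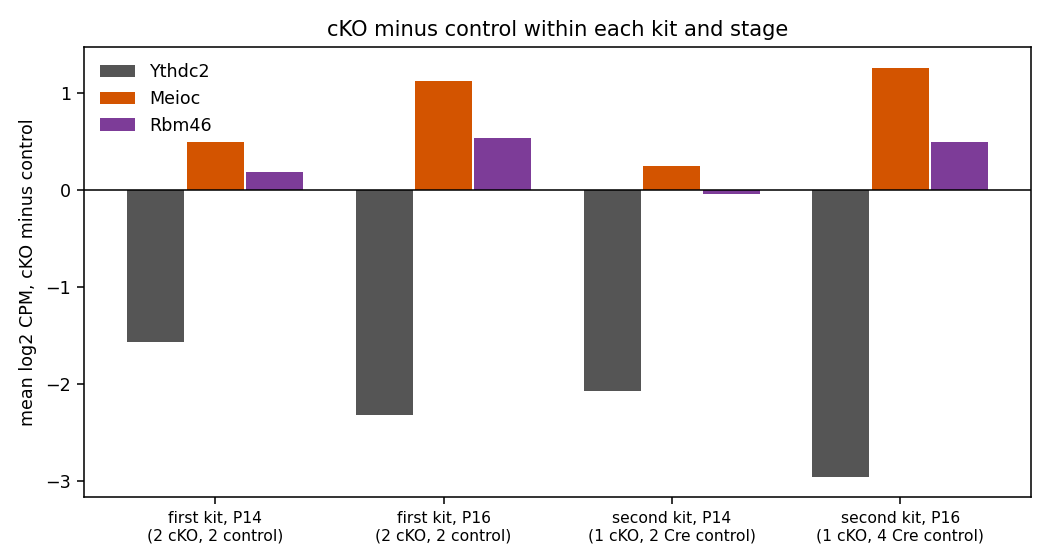
Difference in mean log2 CPM between cKO and control within each kit and stage, 1 bar per gene (the Cre control is the control of the second kit, and the number of libraries is under each set). Bars for Ythdc2 point down throughout and are longer at P16, those for Meioc are positive with 1.13 and 1.26 at P16, and that for Rbm46 is -0.04 at P14 with the second kit.

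An interaction term, fitted to the 8 first-kit libraries, asked whether the effect of the knockout differed between stages, and 8.45% of 17641 genes were called, 2.99% higher and 5.46% lower. The log2 effect on Ythdc2 was lower at P16 than at P14 by -0.73 (SE 0.12, limma adjusted p 0.00785). The effect on Meioc was higher at P16 by 0.66 (SE 0.15, limma adjusted p 0.0290). That on Rbm46 was higher by 0.37 (SE 0.12, limma adjusted p 0.0864) and was not called. Over all 16 libraries, an alternative chosen after the data were seen, the differences were -0.80, 0.83 and 0.46, and none was called (limma adjusted p 0.143, 0.0531 and 0.108). Among the first-kit libraries, the Ythdc2 call was lost without control library 1 at P16 (-0.72, limma adjusted p 0.0531). The Meioc call was lost without either control of P14 or P16 or either cKO library of P16, at 0.56 to 0.77 (limma adjusted p 0.0529 to 0.109). Rbm46 passed the threshold without cKO library 2 at P14 (0.50, limma adjusted p 0.0120).

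In control testes the 3 genes rose together between P14 and P16, by small amounts. Meioc rose by 0.28 (SE 0.044, limma adjusted p 0.00106), Ythdc2 by 0.20 (SE 0.056, limma adjusted p 0.0242) and Rbm46 by 0.14 (SE 0.042, limma adjusted p 0.0329). Of the 17070 genes tested, 27.3% were called, 17.4% higher and 9.89% lower. The Ythdc2 call was lost without control library 1 at P14 (0.12, limma adjusted p 0.0700) and without library 1 or 2 at P16 (0.19 and 0.22, limma adjusted p 0.153 and 0.104). The Rbm46 call was lost without library 1 or 2 at P16 (0.13 and 0.16, limma adjusted p 0.216 and 0.123).

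In Cre control testes none of the members was called between the stages, where 11.8% of 18857 genes were, 9.08% higher and 2.72% lower. Ythdc2 changed by 0.23 (SE 0.20, limma adjusted p 0.515), Meioc by -0.05 (SE 0.15, limma adjusted p 0.874) and Rbm46 by -0.03 (SE 0.12, limma adjusted p 0.903). Within the 1 run that held Cre controls of both stages (2 libraries at P14 and 1 at P16), Meioc changed by 0.38 (limma adjusted p 0.272) and Rbm46 by 0.27 (limma adjusted p 0.482). In cKO, Meioc was 0.94 higher at P16 with the first kit and 0.97 with the second on the log2 CPM scale. Rbm46 was 0.52 and 0.51 higher, and Ythdc2 was lower, by -0.53 and -0.64.

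An exact two-sided permutation test of stage within kit and genotype, over 1080 arrangements, gave a mean difference of 0.54 for Meioc (exact p 0.0287). It gave 0.29 for Rbm46 (exact permutation p 0.0417) and -0.17 for Ythdc2 (exact permutation p 0.452), whose direction differed between cKO and control. For Meioc the threshold was missed without Cre control library 1 at P14 (0.51, exact permutation p 0.0667) and without cKO library 3 of either stage (0.40, exact permutation p 0.0574). For Rbm46 it was missed without cKO library 1 or 3 or Cre control library 1 at P14, or cKO library 2 or 3 or Cre control library 1 at P16, at 0.22 to 0.29 (exact permutation p 0.05 to 0.0833). Without the run of Cre control libraries 2 to 4 at P16, the exact p was 0.00926 for Meioc and 0.00463 for Rbm46.

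The balance between the transcripts of the complex differed between control and cKO. With the first kit, controls held between 7.78 and 8.35 times as much Meioc as Ythdc2 per kb of exon. The cKO libraries held 31.2 and 34.9 times at P14 and 88.7 and 94.3 times at P16. With the second kit the ratio was 2.87 to 5.98 in the Cre controls, 27.2 in cKO at P14 and 83.2 in cKO at P16. No cKO library overlapped a control of its kit. This ratio shares the fall of Ythdc2 that defines the knockout.

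The ratio of Meioc to Rbm46 does not contain Ythdc2. With the first kit it was 1.81 and 1.94 in control at P14, 2.23 and 2.40 in cKO at P14, 2.06 and 2.07 in control at P16, and 3.10 and 3.11 in cKO at P16. With the second kit it was 1.35 and 1.60 in Cre control at P14 and 1.59, 1.38, 1.43 and 1.40 at P16, against 1.80 in cKO at P14 and 2.46 at P16. Within each kit every cKO library lay above every control, and the ratio was highest in cKO at P16.

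Across the 16 libraries, with the mean of each kit subtracted, Meioc and Rbm46 followed each other closely. The Pearson r of their log2 CPM was 0.967 over all libraries, 0.988 over the 8 of the first kit and 0.938 over the 8 of the second. It was -0.775 between Meioc and Ythdc2 and -0.625 between Rbm46 and Ythdc2. These points share genotype, stage and scaling, so r is a description of the pattern. The lowest points were the controls at P14 and Cre control library 2 at P16, and the highest were the 3 cKO libraries at P16. Cre control library 1 at P16 was the highest of the Cre controls for both genes and library 2 the lowest.

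**Figure D3:**
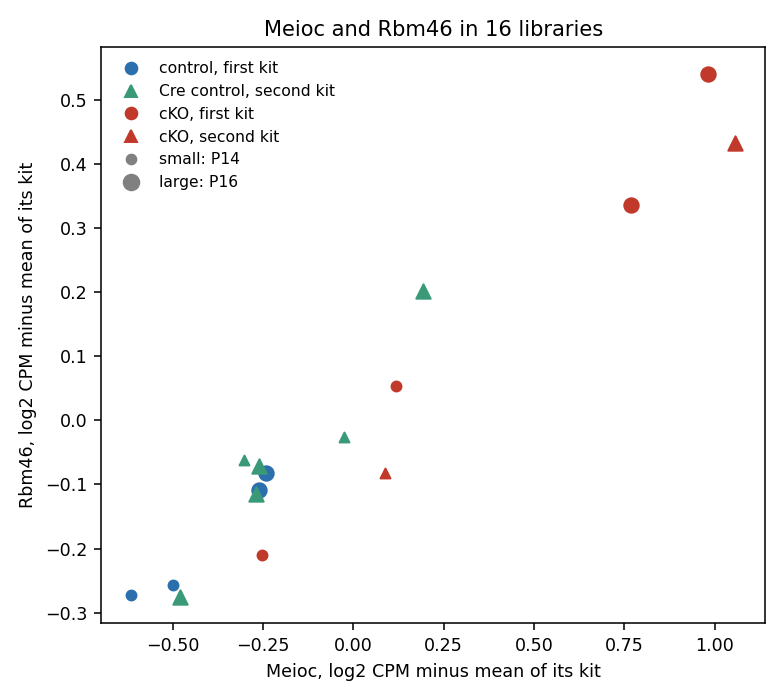
Rbm46 against Meioc in 16 libraries, each as log2 CPM minus the mean of its kit (circles, first kit; triangles, second kit; small, P14; large, P16). The 3 cKO libraries at P16 stand apart at the upper right, and the Pearson r is 0.967.

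Among 12207 genes with a mean of at least 5 CPM, those most like each member by this r were listed. For Meioc they were Setd2 (0.968), Rbm46 (0.967), Wrn (0.961), Arfgef1 (0.960) and Zbtb10 (0.958). Setd2 encodes a histone methyltransferase and Wrn a RecQ helicase. For Rbm46 they were Klhl7 (0.976), Meioc (0.967), Asz1 (0.961), Manea (0.957) and Arfgef1 (0.953). Asz1 encodes a germ cell protein of the piRNA pathway. Each partner was thus second in the other's list. For Ythdc2 they were Uap1 (0.901), Samd4b (0.892), Taf11 (0.886), Nup107 (0.883) and Srp19 (0.882).

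Since these genes were chosen for their likeness over the same libraries, their changes at P16 against control are given as sizes, with no test. On the log2 scale they were 0.22 for Setd2, 0.32 for Wrn, 0.26 for Arfgef1, 0.51 for Zbtb10, 0.36 for Klhl7, 0.22 for Asz1 and 0.30 for Manea, beside 1.11 for Meioc and 0.52 for Rbm46. For the genes most like Ythdc2 they lay between -0.40 (Uap1 and Samd4b) and -0.23 (Nup107), beside -2.34 for Ythdc2.

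Relatives of the members were then examined, to set the changes beside those of their families. Of all 17986 genes at P16 against control, 18.6% were called higher and 19.9% lower, and the counts for each list are to be read against these shares. At P16 against control, none of the 6 DExH helicase relatives of Ythdc2 was called higher and 1 was called lower (Dhx30, -0.15). Their median change was -0.04, against 0.00 over all genes. Of the 4 other YTH domain proteins, which also read N6-methyladenosine, Ythdf3 rose by 0.19, Ythdc1 fell by 0.20 and Ythdf2 fell by 0.16, with a median of -0.13. Of the 5 RRM relatives of Rbm46, Rbm47 rose by 0.53 and Dnd1, a germ cell RNA-binding protein, fell by 0.31. A1cf had -0.86 and was not called, and the median was -0.01.

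RNA decay factors were included because the complex is known to bind the exonuclease XRN1. Of 6 tested at P16 against control, 3 rose, namely Xrn1 (0.23), Cnot7 (0.28) and Dcp2 (0.14), beside 18.6% of all genes called higher and 19.9% lower. Upf1 fell by 0.19, and the median was 0.12. Without the trend in limma, no gene of these 4 families was called, where 741 of 17986 genes were called higher and 1065 lower. Without control library 1, which leaves 1 control, fewer genes of these families were called, as were fewer of all genes. None of these families had a called member at P14, in the fit over all libraries, or in the interaction. Against Cre control at P16, Ythdf3 was called higher (0.75) and Upf1 lower (-0.95), against 4.3% and 4.77% of all genes. Neither was called once kit entered the model, where 0 of 19200 genes were called higher and 1 lower. Nor was either called without any 1 of the Cre controls or of cKO libraries 1 and 2, where 0 genes were called.

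Regulators of meiotic entry fell at P16 in the first kit. Of 9, none was called higher and 8 lower against control (19.9% of all genes were called lower), with a median of -0.39. The count was lower without either control library, which leaves 1 control, as was that of all genes called lower. Without the trend in limma it was 4, where 1065 of 17986 genes were called lower. Meiosin (-1.80) and Stra8 (-1.10), whose products act together to switch on meiotic genes, fell the most. Rec8, a meiotic cohesin, fell by 0.54. Sohlh1, Dmrt1, Sohlh2, Kit and Dazl fell by 0.52, 0.39, 0.35, 0.21 and 0.17, and Rara had 0.07 and was not called. In the interaction, 4 of 9 were called lower at P16, beside 5.46% of all genes. That count changed with the library left out, each such fit leaving 1 library in a group. Fitted over all 16 libraries, the interaction called none of the 9, and 36 genes higher and 29 lower out of 19821. In the genotype fit over all libraries 1 of 9 was called lower, Meiosin (-0.76, limma adjusted p 0.0426), beside 1.47% of all genes. That call ended without any 1 of the control or cKO libraries at P16, Cre control library 1, 3 or 4 at P16, or cKO library 1 or Cre control library 1 at P14. Without a control or cKO library at P16, or Cre control library 3 at P16, 0 of all genes were called higher and 1 lower. Against Cre control at P16, limma called none.

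Genes of early meiotic prophase, the stage that follows, also fell. At P16 against control, 13 of 14 were called lower and none higher (19.9% and 18.6% of all genes), with a median of -0.56. Most stayed called without any 1 library, a fit that leaves 1 library in a group. Without the trend in limma the count was 7, where 1065 of 17986 genes were called lower. The 3 with the most change were Mei1 (-1.86), Prdm9 (-1.63), the methyltransferase that places recombination sites, and Rad21l (-1.59), a meiotic cohesin subunit. Over all libraries 5 of 14 were called lower (1.47% of all genes), namely Prdm9, Mei1, Rad21l, Smc1b and Stag3, with a median of -0.33. None was called without any 1 of the control or cKO libraries at P16 or without Cre control library 3 or 4 at P16. Each of those fits called 0 or 1 of all genes higher and 1 lower. The count was 1 without cKO library 1 at P14, 10 without cKO library 2 at P14 and 3 without Cre control library 1 at P14. Against Cre control at P16, 4 of 14 were called lower (4.77% of all genes), with a median of -0.11 against -0.04 over all genes. Those calls ended once kit entered the model, and without any 1 of the Cre controls or of cKO libraries 1 and 2. Of all genes, the model with kit called 0 higher and 1 lower, and those left-out fits called 0. Meioc and Rbm46, which are germ cell transcripts too, were called higher at P16 against control (1.11 and 0.52). Some of the germ cell markers given below were also called higher there, and others lower. The cause of these directions was not tested.

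**Figure D4:**
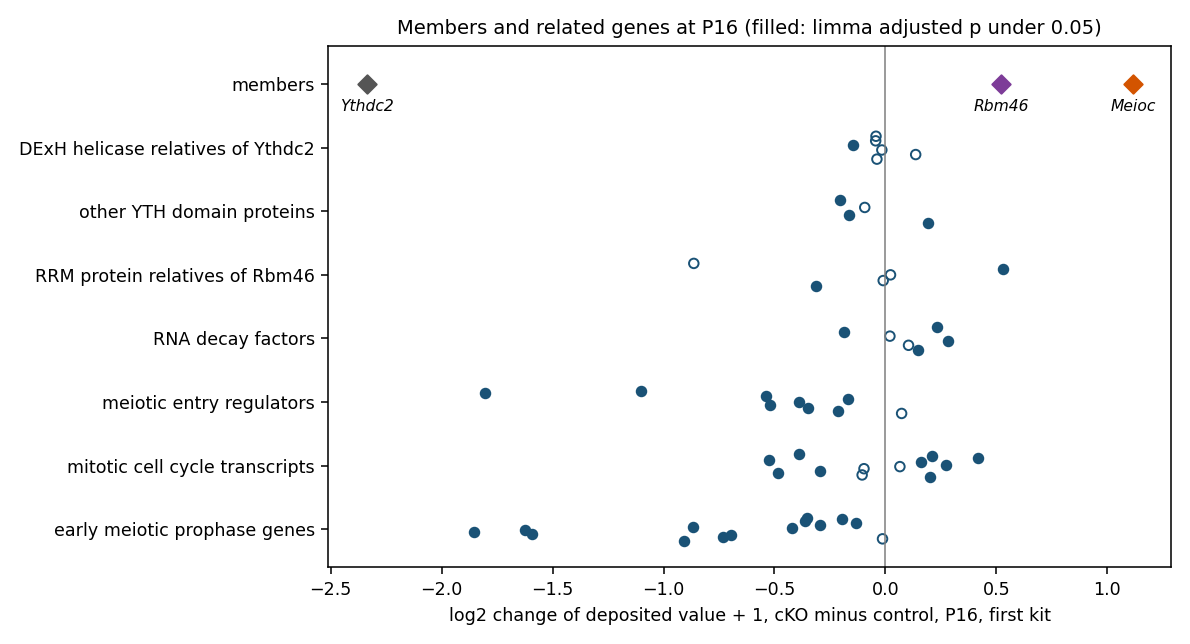
Log2 change of the deposited value + 1 between cKO and control at P16 with the first kit, 1 point per gene, for the members and 7 lists of related genes (filled, limma adjusted p under 0.05; open, not called). Ythdc2 lies at -2.34 and Meioc at 1.11, while meiotic entry and early prophase genes lie mostly below 0.

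Transcripts of the mitotic cell cycle went both ways. Of 12 at P16 against control, 5 rose and 4 fell, beside 18.6% and 19.9% of all genes, with a median of -0.02. Fewer were called higher without either control library, which leaves 1 control, as were fewer of all genes. Without the trend in limma the counts were 0 and 2, where 741 of 17986 genes were called higher and 1065 lower. Ccnb2 rose by 0.42, Plk1 by 0.27, Ccnb1 by 0.21, Cenpe by 0.20 and Cdk1 by 0.16. Ccna2, the cyclin whose transcript the complex is known to repress, fell by 0.39. Ccne1 fell by 0.53, Bub1 by 0.48 and Top2a by 0.30. Over all libraries none of the 12 was called. Against Cre control at P16, Mki67 (0.61), Kif11 (0.58) and Cenpe (0.69) were called higher and none lower, beside 4.3% and 4.77% of all genes. Mki67 and Kif11 had -0.10 each against control. None of the 12 was called once kit entered the model, or without any 1 of the Cre controls or of cKO libraries 1 and 2. Of all genes, the model with kit called 0 higher and 1 lower, and those left-out fits called 0.

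Markers of the cells in a testis moved at P16 with the first kit as well, where 18.6% of all genes were called higher and 19.9% lower. Of 8 Sertoli cell markers 5 were called higher and none lower, and their summed level was 956 to 978 CPM in control and 1100 to 1232 in cKO. Of 5 macrophage markers 4 were called higher, with sums of 90.5 to 95.3 and 121 to 122 CPM. Of 6 spermatogonia markers 1 was called higher and 4 lower, with sums of 379 to 381 and 323 to 324 CPM. Of 6 pachytene and later germ cell markers tested, 2 were called higher and 1 lower, with overlapping sums of 1107 to 1149 and 1117 to 1275 CPM. Leydig cell markers (2 of 5 higher), peritubular myoid markers (1 of 4) and endothelial markers (2 of 3) had none called lower, and none of 3 red blood cell markers was called. Insl3 of Leydig cells and Acrv1 of late germ cells were at 0 in some library, and every spermatogonia marker was above 1 CPM in all 16. In second-kit libraries the spermatogonia sum of cKO library 3 at P16 was 402 CPM, inside the Cre control range of 338 to 426, and its Sertoli sum of 1409 CPM was above their 1116 to 1324. The part of these cell types in the changes of Meioc and Rbm46 was not tested.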

How the data were processed

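The authors deposited 4 tables of normalized counts, 1 per stage and kind of control. Their values are a signal, namely gene reads over a library size factor, per the file headers and the values. Per the submitters' processing notes, Trim Galore, STAR, HTSeq and DESeq2 were used with the build GRCm39 (mm39). Their versions, settings and strand option are not given in the sources used here. Values above 0 were checked up to a set number of reads, and all of those (100%) were whole multiples of 1 read (tolerance 0.01). Reads were recovered on that basis. Higher values, among them Meioc in first-kit cKO libraries and in the controls at P16, were rounded in the same way without this check. In both tables of a stage, cKO libraries 1 and 2 had the same reads. Summary rows were left out of every test: unmapped reads took 18.1% to 41.1% of each library, reads outside genes 12.3% to 28.6%, multimapping reads 5.81% to 10.9% and ambiguous reads 1.37% to 2.80%.

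Names and exon lengths came from GENCODE M21, which is of another build. No gene coordinates are therefore given, apart from the promoter windows above, which are on GRCm38.p6. Of 55414 IDs, 52081 had a name, and all 98 listed genes were matched. None of the members overlaps an annotated gene in that release.

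Within a table, limma 3.58.1 (R 4.3.3, eBayes with trend) was run on log2(deposited value + 1) for genes of at least 10 in at least 2 libraries. Fold changes on this scale understate those of low genes. Across tables, limma was run on log2 CPM of the recovered reads (TMM, prior count 1, at least 0.5 CPM in at least 2 libraries). P-values were adjusted by Benjamini-Hochberg over all genes tested, and called means under 0.05. The exact permutation tests used log2 CPM over the 16 libraries. edgeR 4.0.16 and DESeq2 1.42.0 on the recovered reads were alternatives. At P16 against control edgeR called 3449 genes higher and 3534 lower and DESeq2 2302 and 2339, against 3352 and 3587 by limma. The fits were checked on simulated data with 100 changed genes. Changes of 1.5-fold were recovered for 47% of them at P14 against control and for 65% at P16. Changes of 2-fold were recovered for 99% and 98%. In the fit over all libraries the shares were 96% at 1.5-fold and 99% at 2-fold.

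Named are the members, the genes of the fixed lists, and the 5 genes most like each member. The members and lists were chosen with earlier results of these data known.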

Additional observations from a re-analysis of the deposited data

Results flagged for a closer look

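The effect of the knockout on Ythdc2 and on Meioc differed between the stages in the interaction over the 8 first-kit libraries. The difference, P16 minus P14, was -0.73 for Ythdc2 and 0.66 for Meioc, with TMM scaling over those 8 libraries. With scaling over all 16, which moves these values a little, the first-kit effects in mean log2 CPM were -1.57 at P14 and -2.33 at P16 for Ythdc2, and 0.49 and 1.13 for Meioc. In the second kit, with 1 cKO library per stage and hence no test of its own, the effects went the same way, from -2.08 to -2.96 for Ythdc2 and from 0.25 to 1.26 for Meioc.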

How the results depend on the processing

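Of 213 alternatives to the 30 member results other than leaving out a library, 176 kept direction and call, as did 199 of 258 fits without a library; the cause of a lost or reversed call was not tested. Without a filter, calls were lost for Ythdc2 against control at P14 (-1.60), for Ythdc2 (0.20) and Rbm46 (0.14) between stages in control, and for Meioc in the interaction (0.64). Without the trend, they were lost for Ythdc2 at P14 (-1.60), for Rbm46 against control at P16 (0.52) and for the members against Cre control at P16 (-2.36, 1.96 and 0.97). DESeq2 called Meioc against control at P14 (0.46), Ythdc2 against Cre control at P14 (-1.52), Rbm46 over all libraries (0.30) and Rbm46 in the interaction (0.38), and lost Ythdc2 (0.19) and Rbm46 (0.14) between stages in control. With DESeq2 size factors the exact test of stage missed the threshold for Rbm46 (0.27, exact permutation p 0.0593). With the kit as a covariate, Rbm46 against Cre control reversed at P14 (-0.074), and at P16 Meioc (1.25) and Rbm46 (0.49) were lost. The added settings gave, for Meioc over all libraries, 0.35 at P14 alone and 0.68 without the last run, for Rbm46 0.52 at P16 alone, for the interaction over all libraries -0.80 (Ythdc2) and 0.83 (Meioc), and within 1 run of Cre controls 0.38 (Meioc) and 0.27 (Rbm46), both reversed.

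Nothing in the labels says that replicate numbers pair the samples, and they were not treated as pairs. In the tables of controls, deviations of same-numbered libraries correlated at 0.203 (P14) and 0.0798 (P16). In those with Cre controls they correlated at -0.233 and 0.242 at P14, and at 0.304, -0.0704 and 0.225 at P16. With 2 libraries per group, as in the tables of controls, both replicate numbers must give the same value. In the tables with Cre controls, replicates 1 and 2 compare across kits. These values therefore cannot decide whether the samples are paired. With the replicate number as a block, Meioc against control at P14 was called (0.45), as were all members against Cre control at P14 (-1.29, 1.32 and 0.66), where the block leaves out cKO library 3 and kit and genotype cannot be told apart, and Rbm46 in the interaction (0.37). Of all genes, these fits called 2 higher and 3 lower, 2876 and 4090, and 955 and 1394, in that order. The block lost the members against Cre control at P16 (-2.41, 1.94 and 0.97, limma adjusted p 0.110) and Meioc over all libraries (0.83), and turned Meioc (0.014) and Rbm46 (0.00078) between stages in Cre control. With the block, 0 genes were called against Cre control at P16, and 1 higher and 1 lower over all libraries.

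Leaving out each library gave these ranges for Ythdc2, Meioc and Rbm46 in turn: against control -1.70 to -1.51, 0.28 to 0.63 and 0.03 to 0.27 at P14 and -2.39 to -2.28, 1.02 to 1.21 and 0.43 to 0.62 at P16; against Cre control -1.75 to -1.29, 0.68 to 1.32 and 0.23 to 0.66 at P14 and -2.54 to -2.05, 1.73 to 2.31 and 0.80 to 1.21 at P16; over all libraries -2.31 to -2.01, 0.64 to 0.92 and 0.23 to 0.38; between stages 0.12 to 0.28, 0.22 to 0.33 and 0.13 to 0.16 in control and 0.05 to 0.35, -0.19 to 0.08 and -0.13 to 0.03 in Cre control, where Meioc turned without Cre control library 2 of P14 (0.079) or P16 (0.033) and Rbm46 without library 2 of P16 (0.031); in the interaction -0.83 to -0.63, 0.48 to 0.84 and 0.25 to 0.50; in the exact test of genotype -2.28 to -1.99, 0.62 to 0.96 and 0.23 to 0.41; and in that of stage -0.22 to -0.02, 0.40 to 0.59 and 0.22 to 0.33. A library left alone in its group is assumed to vary like the other group.

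Over all alternatives the number of genes called ran from 0 to 11 (P14) and 1806 to 8200 (P16) against control, 0 to 6966 and 0 to 9427 against Cre control, 1 to 2738 over all libraries, 2123 to 5897 and 580 to 2761 between stages, and 65 to 3160 in the interaction. Against Cre control at P16, edgeR called 1027 higher and 527 lower, against 825 and 916. Ythdc2 had as few as 171 reads in a cKO library.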

Other observations

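Of the 6 DExH helicase relatives, 2 were called higher at P16 than at P14 in both kinds of control, where 17.4% (control) and 9.08% (Cre control) of all genes were. Tdrd9, a germ cell helicase of the piRNA pathway, rose by 0.57 in control and 0.76 in Cre control, and Dhx30 rose by 0.44 and 0.49. In Cre control, Tdrd9 was not called without library 1 at P14 (0.74, limma adjusted p 0.0612). Dhx30 was not called there without library 1 (0.45, limma adjusted p 0.200) or 2 (0.52, limma adjusted p 0.0604) at P14, or library 3 at P16 (0.43, limma adjusted p 0.0960).

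Stra8 and Meiosin fell between P14 and P16 in Cre control (-0.82 and -0.81, called by limma), where 2.72% of all genes were called lower, and were not called in control (-0.08 and 0.08). Meiosin was not called without Cre control library 1 at P14 (-0.73, limma adjusted p 0.0720). Within the 1 run that held Cre controls of both stages, Stra8 changed by -0.73 and Meiosin by -0.57. That fit has 1 library at P16, and Meiosin was not called in it. The difference between the kinds of control was not tested, and kind of control and kit cannot be told apart.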
